A study of Xenopus laevis with 6 samples.

Results

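The subject is a set of 848 broad regions of open chromatin in Xenopus laevis ectoderm that were listed both at the start and late in gastrulation. Libraries were made from animal caps, the explanted ectoderm of the embryo, which were dissected at stage 9 and then cultured to stage 10 (early gastrula, 3 libraries) or stage 12 (late gastrula, 3 libraries), with 2 explants in each library and no treatment, allele or transgene named in the labels. The assay was ATAC-seq, in which the transposase Tn5 cuts accessible DNA and the cut ends are sequenced, here as paired reads of 100 nucleotides. Each stage has 1 deposited list of regions for its 3 libraries, so a difference between stages is a difference between 2 lists and has no spread between replicates and no test. The lists hold no expression values, so the labelled tissue was not checked against marker genes, and a region open in a few cells cannot be told apart from one weakly open in many.

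A region is an interval on the genome, and the deposited lists give 1 or more summits in each, a summit being a local maximum of read coverage. Members were found by joining rows with the same interval, keeping the 18 assembled chromosomes, taking intervals that overlapped exactly 1 interval of the other stage by at least 1 bp, and asking for a width of at least 1500 bp at one or both stages. They are 3.11% of the 27293 one-to-one pairs, 2.11% of the 40211 regions on chromosomes at stage 10 and 1.54% of the 55045 at stage 12. They cover 1.25 Mb at stage 10 and 1.40 Mb at stage 12, which is 5.50% and 4.09% of the bases listed on chromosomes. Of 623 stage 10 regions of 1500 bp or more, 516 are members, and of 1060 such stage 12 regions, 725 are. The others were in no one-to-one pair.

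Open chromatin marks DNA that is not packed against transcription factors, and in vertebrates wide accessible intervals are found at promoters rich in CpG and where several regulatory elements lie next to each other. In the frog animal cap, gastrulation is the period in which cells lose pluripotency and turn towards epidermal or neural fates, so regulatory DNA is in flux. Within a wide interval, separate summits can stand for separate bound elements or for the gaps between nucleosomes, the protein cores on which DNA is wound. The genome build named in the submitters' processing notes is xenLae2. Genes, promoters and DNA sequence of the regions were not analysed here.

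The pileup is the number of reads stacked at a summit, a whole number solved together with the local background from the deposited fold enrichment and −log10 p. This assumes the formulas of the peak caller MACS2, which the sources used here do not name. The floor is the most common background of a list, shared by 5672 summits at stage 10 and 9816 at stage 12. Within rounding, no one-to-one pair had a lower background at its summit of highest −log10 p. The floor was 2.204 reads at stage 10 and 4.70 at stage 12, 2.13 times as high, and it serves as the scale of depth. The best summit of a region is the one with the highest −log10 p.

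Widths chose the members, so what follows on widths is a description. Of the 848 members, 393 (46.3%) were at least 1500 bp wide at both stages, 332 (39.2%) only at stage 12 and 123 (14.5%) only at stage 10. So all 848 were listed at both stages, but under 50% of them were broad throughout. The median width stood at 1540.5 bp at stage 10 and 1610 bp at stage 12, and the interquartile ranges were 1301 to 1695 bp and 1528 to 1759 bp. Single intervals ran from 78 to 2930 bp at stage 10 and from 223 to 3128 bp at stage 12. In the group broad at both stages the median change was a gain of 9 bp (interquartile range -21 to 73 bp), with 221 of 393 wider at stage 12. By construction, every member broad only at stage 12 gained width (median 463.5 bp) and every member broad only at stage 10 lost it (median change -305 bp).

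A change of more than 1.5-fold in width was called for 133 members (15.7%) towards wider and 24 (2.83%) towards narrower at stage 12. Over all one-to-one pairs the same rule called 16.5% wider and 2.71% narrower. Because the limit was set on width, nothing is read from these counts. At the limit itself, the 3 members just inside were 1500 bp wide at their wider stage, on chromosomes 2L, 3L and 4L, and were 1089, 393 and 1481 bp wide at the other. The 3 pairs just outside, on chromosomes 8L, 1S and 4S, were 1499, 1498 and 1498 bp wide at stage 12, against 918, 1094 and 1492 bp at stage 10.

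**Figure D1:**
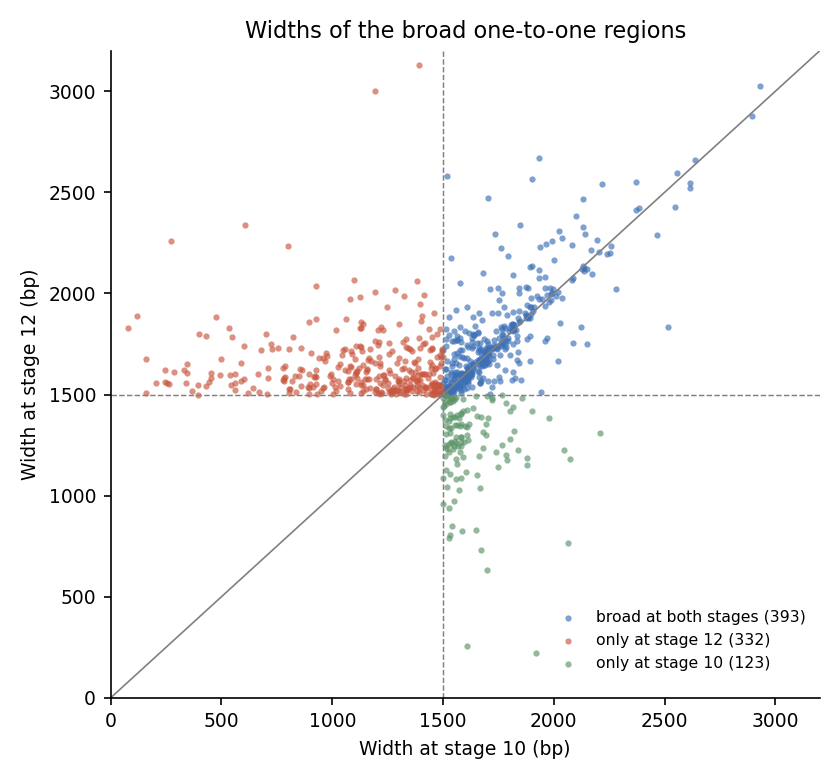
Width of each of the 848 members at stage 10 (horizontal axis, bp) and stage 12 (vertical axis, bp), one point a member, with the 1500 bp limit dashed and equal widths as a solid line. The 393 members broad at both stages lie along the line, while the 332 broad only at stage 12 spread to the left, down to 78 bp at stage 10.

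Just over 50% of single edges stayed close to where they were. Both ends held within 50 bp in a minority of all members, but in 53.7% of those broad at both stages. Growth was measured at each edge, positive when the stage 12 edge lay further out. The part of the unequal floors in edge movement was not tested. The left edge, at the lower coordinate, moved out by a median of 8 bp (interquartile range -12.25 to 148.25 bp) and the right edge by 10 bp (-7 to 166.25 bp). Of the 1696 edges, 916 (54.0%) were within 50 bp of their stage 10 position and 660 (38.9%) within 20 bp. In 109 members at least 1 edge was at the same base at both stages, and in 2 members both were. Left and right counts were close, with 501 left and 524 right edges further out at stage 12.

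The 2 edges of a member often moved by unequal amounts. The edge that moved more accounted for a median of 90.9% of the summed movement of both edges (interquartile range 74.6% to 97.9%), a share that cannot be under 50% and that counts small movements too. The edge that moved less shifted by a median of 11 bp, against 199 bp for the edge that moved more. In the members broad at both stages these medians were 7 and 43 bp. Both edges held within 50 bp in 231 members (27.2%), 1 of them in 454 (53.5%) and neither in 163 (19.2%). Among the 393 broad at both stages, both held in 211 (53.7%). Outward movement of at least 100 bp was seen at some edge in 410 members (48.3%) and at both edges in 75 (8.84%). Inward movement of that size was seen at some edge in 163 (19.2%) and at both in 8. Shares over all one-to-one pairs are not given here for these edge counts, so nothing about broad regions is read from them. Across the 848 members, left and right growth were nearly unrelated (Pearson's r = 0.06, Spearman's rho = 0.09), the 2 values of a member sharing its lists and its interval.

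The next widths down gave a similar picture. Among the 5559 one-to-one pairs whose wider interval was 1000 to 1499 bp, the edges moved out by medians of 11 and 11 bp, 57.7% of edges were within 50 bp, and the larger movement held a median of 89.4% of the sum. What differed was the far tail, which the width limit itself favours. Movements outward by 600 bp or more made up 6.25% of the members' edges and 2.51% of those of the next band. Over all one-to-one pairs, most of them narrower, edge movements were less spread out. Their interquartile ranges were -2 to 47 bp on the left and -3 to 48 bp on the right. The edge that moved more shifted by a median of 57 bp there, against 142 bp in the next band.

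**Figure D2:**
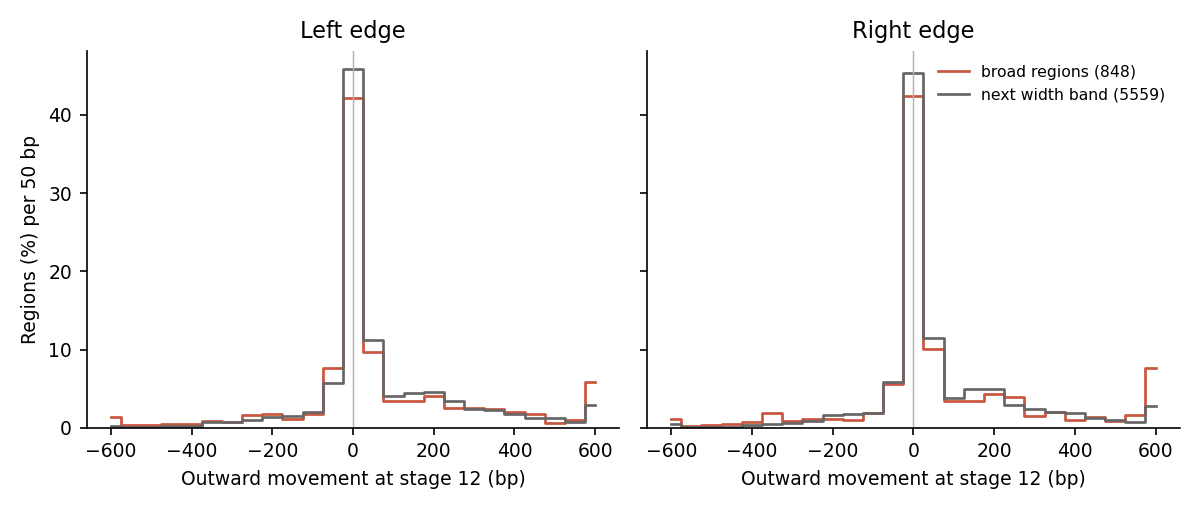
Outward movement of the left and right edges from stage 10 to stage 12 (horizontal axis, bp, negative is inward; the end bins hold all larger movements) as the percentage of regions in each 50 bp bin, for members and for pairs of 1000 to 1499 bp. Both sets peak at 0 on both sides, with a tail to the right that is longest in members.

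One-sided extension, with 1 edge out by at least 100 bp and the other within 50 bp, was found in 267 members, 132 on the left and 135 on the right, with a median of 314 bp. It took place at the edge nearer to the best stage 10 summit in 141 of them (52.8%, 95% Wilson interval 46.8% to 58.7%). One-sided retreat was found in 116 members, 61 on the left and 55 on the right, with a median of 289.5 bp. It took place at the edge nearer to the best stage 10 summit in 34 of them (29.3%, 21.8% to 38.2%). In these 116 members the retreating edge was thus more often the one further from that summit. These intervals cover counting error only, as do all others given here. Neither share is given here for other pairs, and neither was tested, so nothing about broad regions is read from them.

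Extension did not always bring a new summit. Of the 236 left extensions of at least 100 bp, 133 (56.4%) held a stage 12 summit beyond the stage 10 edge, and of the 249 right extensions, 150 (60.2%) did. Extensions with a summit were longer, at medians of 415 bp on the left and 491 bp on the right, against 210 and 199 bp for those without. An extension that held any had 1.77 summits on average on the left and 1.87 on the right, and at most 9. In the next width band 53.6% of left and 51.3% of right extensions held a summit.

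The greatest gain was on chromosome 7L, where an interval of 271 bp at stage 10 (62035851 to 62036121) lay within one of 2260 bp at stage 12 (62033895 to 62036154). The left edge moved out by 1956 bp and the right edge by 33 bp. Its 2 stage 10 summits were found again 14 and 3 bp away, and 9 further summits were listed to the left. The outermost of those were the strongest of the added ones. On chromosome 1S, an interval of 1191 bp (70246222 to 70247412) became one of 3001 bp (70246231 to 70249231) by movement of the right edge, with a growth of 1819 bp against -9 bp on the left. There the best summit moved 1994 bp, into the added stretch. Further gains were a 120 bp interval on chromosome 2L that became 1890 bp with only 2 summits, a 78 bp interval on chromosome 2S that became 1831 bp with its right edge at the same base, and a 1392 bp interval on chromosome 5S (91701739 to 91703130) that became the widest of all at 3128 bp.

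Of the 5 greatest losses of width, 4 were at one end. On chromosome 4L an interval of 1919 bp (121045720 to 121047638) shrank to 223 bp (121047435 to 121047657), its right edge moving out by 19 bp. At stage 12 it had 2 summits in place of 9, 1 and 20 bp from the nearest of stage 10. Its best summits at the 2 stages were different ones, 410 bp apart. The stage 10 best, at 38.6 floors, lay outside the stage 12 interval. The stage 12 best stood at 38.3 floors, and the stage 10 summit nearest to it at 30.4 floors. On chromosome 7S an interval of 2066 bp had a growth of -1270 bp on its right while its left edge growth was -31 bp, and here the best pileup over the floor rose from 98.0 to 129. The member on chromosome 3L that went from 1607 to 258 bp, the second greatest loss, retreated on both sides, with growths of -768 and -581 bp. The other 2 of the 5 greatest losses were from 1699 to 634 bp on chromosome 4S and from 1671 to 730 bp on chromosome 1L, with 7 bp and 15 bp of outward movement at the edge that stayed.

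**Figure D3:**
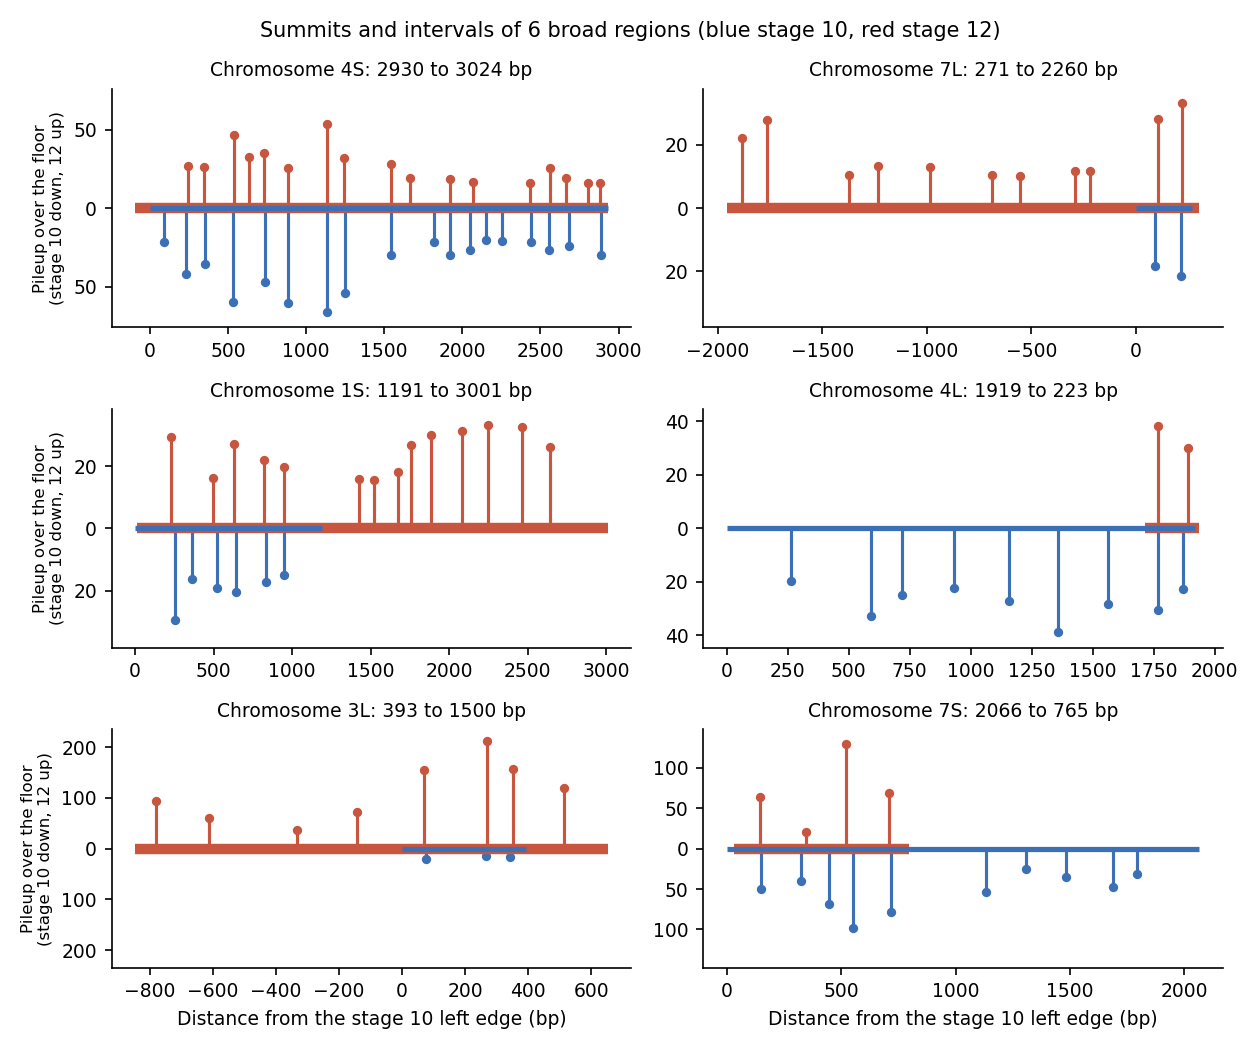
Summits of 6 members, placed by distance from the stage 10 left edge (horizontal axis, bp), with pileup over the floor drawn downwards for stage 10 and upwards for stage 12 (vertical axis, no unit) and intervals as blue and red bars. Gains on 7L and 1S and losses on 4L and 7S lie at one end, and summits common to both stages face each other.

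Most members held several summits at both stages. The number of distinct summits in a member ran from 1 to 18 at stage 10 and from 1 to 17 at stage 12, with a median of 7 at both and interquartile ranges of 6 to 9. The mean rose from 7.02 to 7.42. A single summit was listed for 10 members at stage 10 and 3 at stage 12, and 10 or more for 112 members at each stage. Per kb of interval the members had 4.75 summits at stage 10 and 4.49 at stage 12, close to the 4.79 and 4.55 of the next width band.

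More summits at stage 12 were counted in 376 members (44.3%, 95% Wilson interval 41.0% to 47.7%), the same number in 201 and fewer in 271 (32.0%). Over all one-to-one pairs 34.6% had more and 20.6% had fewer, but those pairs are mostly narrow, and in the next width band the shares were 44.8% and 26.0%. In the group broad at both stages, gains and losses balanced, with 143 members up and 144 down. Summit number followed width across members (change in number against change in width, Pearson's r = 0.61, Spearman's rho = 0.51, n = 848 members), the points sharing 2 lists. It did so less closely in the 393 members broad at both stages (r = 0.23, rho = 0.22), and in the next width band the values were 0.57 and 0.49. When only summits of at least 10 floors were counted at both stages, 364 members (42.9%) had more at stage 12 and 285 had fewer. Shares under that rule are not given here for other pairs, so nothing about broad regions is read from these 2 counts.

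The median distance between adjacent summits was 183 bp over 5108 spacings at stage 10 and 191 bp over 5442 at stage 12, with interquartile ranges of 127 to 245 bp and 130 to 242 bp. The distribution had 2 humps. At stage 10 the fullest 20 bp bin was 100 to 120 bp, with 11.4% of spacings, and a second rise stood at 180 to 200 bp, with 8.57%. At stage 12 the 2 humps were nearly level, with 9.94% (541 spacings) at 100 to 120 bp and 10.3% (563 spacings) at 200 to 220 bp. Spacings from 180 to under 260 bp made up 31.3% at stage 10 and 36.6% at stage 12, while those from 80 to under 140 bp went from 29.0% to 26.8%. The next width band moved the same way, from 32.5% to 38.0% and from 31.2% to 27.9%. The floor differs between the lists, and its part in the number and spacing of summits was not tested.

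**Figure D4:**
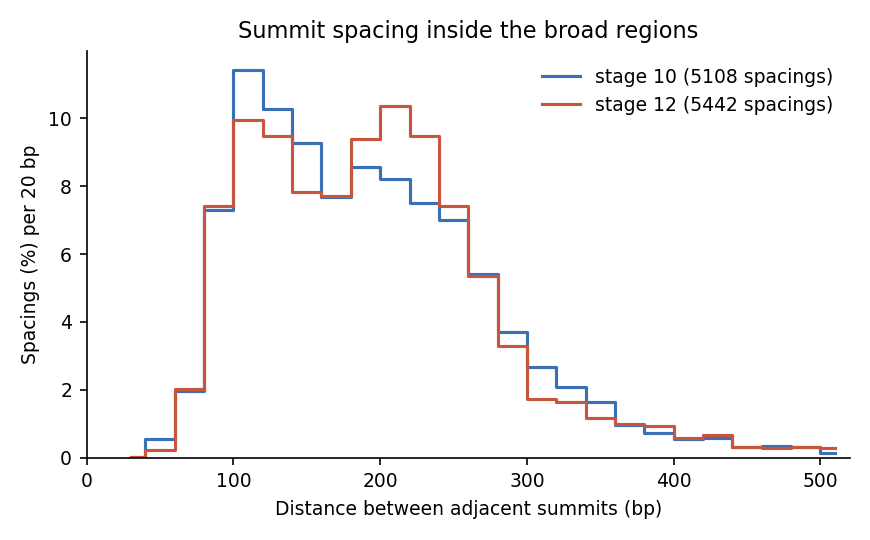
Distance between adjacent summits within members (horizontal axis, bp) as the percentage of all spacings in each 20 bp bin (vertical axis), for stage 10 and stage 12. Both stages have a hump at 100 to 140 bp and another near 200 bp. The second is the lower one at stage 10 and nearly level with the first at stage 12.

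Individual summits kept their places. Of the 5956 stage 10 summits, 5252 (88.2%, 95% Wilson interval 87.3% to 89.0%) had a stage 12 summit of the same member within 100 bp, and 3965 (66.6%) within 20 bp. The median distance to the nearest was 11 bp. Of the 6290 stage 12 summits, 5205 (82.8%, 81.8% to 83.7%) had a stage 10 summit within 100 bp. In the next width band the shares within 100 bp were 90.6% of stage 10 and 83.4% of stage 12 summits. With a median spacing near 190 bp, a limit of 100 bp leaves few places in a region out of reach, so the share within 20 bp is the stricter one.

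Summits without a counterpart were weak ones. At stage 12, 569 lay inside the stage 10 interval and 516 outside it, with median pileups of 18.1 and 16.4 times the floor, against 33.0 for those with a counterpart. At stage 10, 537 lay inside the stage 12 interval and 167 outside it, at 18.1 and 19.1 times the floor against 29.0. Inside the interval of the other stage, such summits were therefore about as many at stage 10, in 375 members, as at stage 12, in 406. They made up 9.02% of stage 10 and 9.05% of stage 12 summits, against 7.63% and 8.46% in the next width band. The part of the unequal floors in which summits were listed was not tested. In members broad at both stages, 302 stage 12 summits and 316 stage 10 summits lay inside the interval of the other stage without a counterpart. Summits without a counterpart were weak in the next width band too. At stage 12 their medians were 15.7 floors inside and 16.0 outside, against 35.5 for those with one. At stage 10 they were 15.9 and 16.8 floors, against 25.9.

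The best summit was within 100 bp at both stages in 566 members (66.7%, 95% Wilson interval 63.5% to 69.8%) and within 20 bp in 490. In 108 members (12.7%) it moved by more than 500 bp. Narrower regions have fewer summits to choose from, and in the next width band 73.8% stayed within 100 bp and 4.61% moved beyond 500 bp. Among the 282 members in which it moved by over 100 bp, the stage 12 best was the second-ranking summit of stage 10 by pileup in 142 (50.4%), the third in 55, a lower one in 60 and the first in 3. In 22 (7.80%) it matched no stage 10 summit. Several summits were close in height in most members, with the second at a median of 82.2% of the best at stage 10 and 82.0% at stage 12.

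Signal was compared as the pileup of the best summit over the floor. The median pileup of the members' best summits was 104 reads at stage 10 (range 23 to 9121) and 292 at stage 12 (45 to 18167). In floors these are medians of 47.2 (interquartile range 30.9 to 67.2) and 62.1 (39.1 to 94.3).

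The log2 ratio of stage 12 to stage 10 was a median of 0.43 (interquartile range 0.09 to 0.68), with 676 of 848 members higher at stage 12. All one-to-one pairs had a median of 0.49 (interquartile range 0.05 to 0.83), a range wholly positive, so most of those pairs were higher at stage 12 too. Their exact share is not given here, so nothing about broad regions is read from the count of 676. Relative to all one-to-one pairs the members stood at -0.06. Pairs of the next width band were higher than either, at 0.61 (0.31 to 0.87). By width the median was 0.45 in the 584 members of up to 1749 bp, 0.40 in the 175 of 1750 to 1999 bp and 0.21 in the 89 of 2000 bp or more. It was 0.62 and 0.59 for pairs of 1000 to 1249 and 1250 to 1499 bp, so the ratio was lower in each step of width above 750 to 999 bp, where it was 0.63. The interquartile ranges of single regions overlapped throughout, and the steps between medians were not tested.

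Past 1.5-fold, 293 members (34.6%, 95% Wilson interval 31.4% to 37.8%) were higher and 37 (4.36%) were lower at stage 12. The same rule called 43.2% of all one-to-one pairs higher and 7.05% lower. After centring on the median of all one-to-one pairs, 47 members (5.54%) were higher and 144 (17.0%) lower, against a background of 12.0% and 19.1%. In the next width band these centred shares were 11.0% and 9.43%. Members broad at both stages, at stage 12 only and at stage 10 only had uncentred medians of 0.40, 0.44 and 0.45. Across all members the change in signal was nearly unrelated to the change in width (Pearson's r = 0.06, Spearman's rho = 0.01, n = 848 members, the points sharing 2 lists). The values were r = -0.11 and rho = -0.13 in the 393 members broad at both stages. In the next width band they were 0.11 and 0.07.

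**Figure D5:**
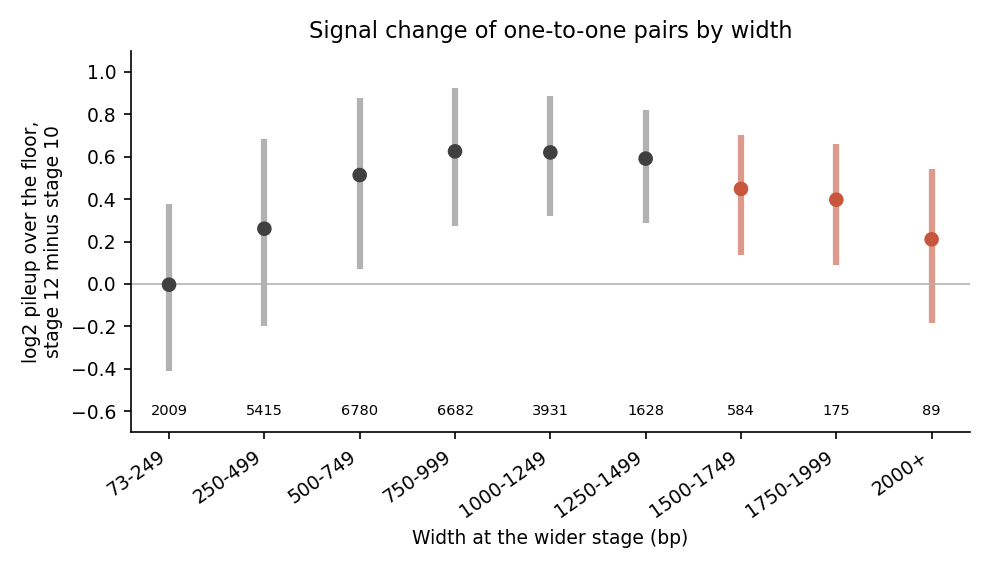
Change in best-summit pileup over the floor from stage 10 to stage 12 (vertical axis, log2) for one-to-one pairs grouped by the width of their wider interval (horizontal axis, bp), with points for medians, bars for interquartile ranges and the number of pairs underneath. Members, in red, have medians of 0.45, 0.40 and 0.21, below the 0.59 to 0.63 of pairs from 750 to 1499 bp.

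The rise was smaller when all summits of a region were taken. When the median over all summits of a region replaced its best one, the log2 ratio of the members was 0.15 (interquartile range -0.17 to 0.50), against 0.38 in the next width band. The listed summits differ between stages, so this ratio does not compare the same summits. Its median was 0.16 in members broad at both stages, 0.07 in those broad only at stage 12 and 0.37 in those broad only at stage 10. The weakest summit of a member stood at a median of 35.5% of the best at stage 10 and 26.6% at stage 12. The number of summits that reached 50% or more of the best averaged 4.37 at stage 10 and 3.89 at stage 12. The next width band moved the same way, from 38.3% to 26.8% and from 3.23 to 2.94. Among the members' summits paired between stages within 100 bp, the median ratio was 0.22. Of these, the summits ranked first at stage 10 had a median ratio of 0.33. Those ranked below the third had 0.17. Ranked by stage 12 instead, the medians were 0.52 and 0.04. Each ranking uses one of the values in the ratio, so these medians are a description of the ranks.

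Fold enrichment, the authors' ratio of pileup to local background, gave a median log2 ratio of 0.37. It had a median of 9.42 at stage 10 and 12.5 at stage 12. Local background stood at a median of 4.41 floors at stage 10 and 4.86 at stage 12 in members, against 3.13 and 3.70 in the next width band. The top score of 1000 was reached by 688 members at stage 10 and 804 at stage 12. Shares over other pairs are not given here, so nothing about broad regions is read from these counts.

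The steepest rise was at chromosome 3L, 132412844 to 132413236 at stage 10 and 132411997 to 132413496 at stage 12. Its best pileup was 46 reads at stage 10 and 998 at stage 12, or 20.9 and 212 floors, a log2 ratio of 3.35. The 3 summits of stage 10 were found again among the 8 of stage 12. The next rises were on chromosome 9_10S (30 to 352 reads, log2 ratio 2.46), chromosome 3S (29 to 245 reads, 1.99), chromosome 3L near its start (43 to 290 reads, 1.66) and chromosome 3L again (67 to 440 reads, 1.62). Of these 5, 4 also widened, and 1 changed by -108 bp. Local background rose in each of the 5, from 4.25 to 16.5 floors in the first. Fold enrichment therefore rose less than pileup over the floor. It went from 4.53 to 12.7 in the first. In the others, in the order given, it went from 9.07 to 14.4, 7.27 to 15.3, 6.44 to 9.26 and 9.08 to 11.1.

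The deepest falls were in 2 members of very high pileup. On chromosome 1L, an interval at 217939366 to 217941262 with the same edges at both stages went from 5337 reads to 834, a log2 ratio of -3.77. On chromosome 3S, 119814014 to 119816570 went from 7731 to 1560 reads, a ratio of -3.40. Their local backgrounds fell with the pileup, from 200 and 382 floors at stage 10 to 16.0 and 42.0 floors at stage 12. Fold enrichment at the best summit therefore changed little, from 12.1 to 11.0 on 1L and from 9.18 to 7.87 on 3S. The other 3, on chromosomes 8S, 1S and 5S, had ordinary stage 10 backgrounds of 2.86, 1.53 and 2.17 floors and ratios of -1.38, -1.35 and -1.34. A background of more than 10 floors at either stage was found in 98 members (11.6%), and without them the median log2 ratio was 0.41. High backgrounds were also found outside the members. The 95th percentile was 10.9 floors at stage 10 and 11.5 at stage 12 in members, against 10.0 and 10.8 over all one-to-one pairs. In the next width band it was lower, at 8.50 and 9.57 floors. Median backgrounds were 4.41 and 4.86 floors in members, and 3.06 and 3.46 over all one-to-one pairs. The share over 10 floors is not given here for other pairs.

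Members with the most summits were also among the widest. On chromosome 4S, 27340310 to 27343239 had 18 summits over 2930 bp at stage 10 and 17 over 3024 bp at stage 12, its right edge at the same base and its best summit 4 bp away. The fall on chromosome 3S described above had 13 and then 17 summits. On chromosome 8L, 99757283 to 99759830 had 16 at each stage, with 9121 and 18167 reads at its best summit, the highest pileups of any member. The other 2 of the 5 widest, on chromosomes 9_10S and 4S, measured 2892 and 2878 bp and 1934 and 2668 bp at the 2 stages, with 13 and 14 summits each.

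Xenopus laevis is an allotetraploid, in which each chromosome of the longer subgenome (L) has a homeolog in the shorter one (S). The L chromosomes held 467 members and the S chromosomes 381, or 0.341 and 0.334 per Mb of chromosome up to the last listed region. Taking L density over S density within each of 9 homeologous chromosome pairs, on the log2 scale, gave 0.02 ± 0.45 (mean ± SD, n = 9 pairs) for members, and 5 pairs were above 0. All one-to-one pairs of regions gave 0.22 ± 0.15 (mean ± SD, n = 9 pairs), and 9 of the 9 chromosome pairs were above 0. The next width band lay between, at 0.08 ± 0.14 (mean ± SD, n = 9 pairs), with 6 of 9 above 0. Members made up 2.93% of the one-to-one pairs on L and 3.35% of those on S chromosomes. Within chromosome pairs, the log2 ratio of the L share to the S share was -0.20 ± 0.38 (mean ± SD, n = 9 pairs), with 3 of 9 above 0. This was not tested.

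The ratio varied widely between chromosome pairs. Chromosome pair 8 was highest at 0.78, with 48 members on 8L and 23 on 8S, and chromosome pairs 7 and 6 were lowest at -0.55 and -0.54, with 27 against 28 and 40 against 48. Chromosome pair 3 stood at 0.29 (73 and 50 members), pair 2 at -0.26 (53 and 56) and pair 9_10 at 0.16 (34 and 27). Median widths at stage 12 were 1613 bp on L and 1605 bp on S, mean summit numbers 7.39 and 7.45, and edge growth was 8 bp on the left of both and 8 and 11 bp on the right. Of the L members 44.3% were broad at both stages, and of the S members 48.8%. Median log2 signal change was 0.46 on L (interquartile range 0.11 to 0.70) and 0.38 on S (0.06 to 0.66). Within chromosome pairs the L median was above the S median in 7 of 9, by 0.08 ± 0.13 on average (SD, n = 9 pairs), which is less than the spread between pairs.

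Members had about as many open regions nearby as pairs of the next width band, and fewer than other pairs. The median distance to the nearest other member was 898 kb, and 39 members (4.60%) had another within 50 kb. The only run of 3 was on chromosome 2L, from 134115079 to 134207558. No other stage 12 region was listed within 10 kb of 502 members (59.2%), against 56.5% in the next width band and 35.3% of all one-to-one pairs that are not members. Within 50 kb a member had a median of 3 other stage 12 regions (interquartile range 1 to 5), as had the next band, while pairs that are not members had 4 (2 to 7).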

How the data were processed

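ATAC-seq libraries came from stage 10 and stage 12 animal caps, 3 a stage, and each stage has 1 combined list of 129900 and 179410 summits. Reads were converted with bcl2fastq 2.20 and the build was xenLae2, per the submitters' processing notes. The aligner, the peak caller and the way the 3 libraries were combined are not given in the sources used here. The column meanings were read from the narrowPeak column order. The deposited columns used were the region score from the authors (540 to 1000), the summit's fold enrichment ratio over local background, and its −log10 p. The deposited −log10 q was not used.

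Pileup and local background were solved from fold enrichment and −log10 p, with 1 added to both in the fold, for 99.95% and 99.93% of summits, as the whole-number pileup whose −log10 p lies within 0.01 of the deposited one. Every pileup, background and floor assumes the fold and Poisson p formulas of MACS2. Depth per library is unknown, and the floor of each list stands in for it. Rows sharing an interval were joined into regions, and one-to-one overlaps of at least 1 bp were taken. Coordinates are 1-based. The summit of highest −log10 p was the best one, and summits within 100 bp were the same. Named regions were the 5 widest, the 5 greatest gains, losses, rises and falls, the 3 with most summits and the 3 nearest the limit on each side. The members and lists were chosen with earlier results of these data known. No test was run, since no stage has replicate lists and regions are not replicates. Intervals are 95% Wilson intervals. Python 3.11.15, numpy 2.4.6, pandas 2.3.3, scipy 1.17.1 and matplotlib 3.10.9 were used, and the calculations were tested on simulated data.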

Additional observations from a re-analysis of the deposited data

Results flagged for a closer look

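Scaffolds not placed on the assembled chromosomes were left out of the members. On 88 of them lay 131 broad one-to-one pairs, found by the same width limit, which is 3.90% of the 3360 one-to-one pairs there. There are no control samples to set against this signal. Of the 131, 67 were broad at both stages, 46 only at stage 12 and 18 only at stage 10. Their median best pileup was 36.8 floors at stage 10 and 43.0 at stage 12, a median log2 ratio of 0.18. Past 1.5-fold, 27 of the 131 (20.6%) were higher at stage 12 and 13 were lower. On the chromosomes the same rule called 34.6% of members higher and 4.36% lower. Over all one-to-one pairs on the chromosomes it called 43.2% higher and 7.05% lower. The shares over the 3360 one-to-one pairs on unplaced scaffolds are not given here. Nothing about broad regions is therefore read from the counts on scaffolds. The highest pileups were 32324 and 17907 floors, above any member, and 23 pairs had a local background of more than 10 floors. No group had enough samples for a check of single samples against the rest.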

How the results depend on the processing

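Counting each result under each alternative, 59 values stayed within their limits, 39 moved and 4 changed sign. The limits were the counting interval, 1.5 times for counts, and the SD over chromosome pairs for the L to S ratio. Adding unplaced scaffolds could not change the L to S ratio, because they belong to neither L nor S chromosomes. With a width limit of 1000 bp there were 6407 members, 90.2% of stage 10 summits were found at stage 12, 72.8% kept their best summit, and the median log2 signal change was 0.59. With 2000 bp there were 89 members, with edge medians of 20 bp on the left and 16 bp on the right, 39.3% with more summits, spacings of 175 and 184 bp, 86.9% of stage 10 summits found, 62.9% at the same best summit and a signal change of 0.21. Of the L and S comparison, 2000 bp gave no value because chromosome 9_10L held 0 members. Broad at both stages, the 393 members had edge medians of 1 and 4 bp, 36.4% with more summits, a stage 12 spacing of 187 bp, 89.7% and 89.2% of stage 10 and stage 12 summits found, and an L to S ratio of -0.11. The mean width of both stages, an alternative chosen after seeing the data, gave 506 members, edge medians of 2 and 5 bp, 37.4% with more summits, 89.2% and 87.8% found, and an L to S ratio of -0.0065. Without chromosome pair 3 that ratio was -0.013. The sign of the L to S ratio therefore depends on these settings, and its SD over pairs exceeds it.

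An overlap of 50% of both regions gave 86.6% of stage 10 summits found and 63.3% at the same best summit. Summits of at least 10 floors gave 87.0%. A limit of 50 bp gave 79.3%, 74.99% and 62.9% for stage 10 summits, stage 12 summits and the best summit, and 200 bp gave 95.2%, 90.5% and 76.3%. The outermost summits in place of edges moved by medians of 0 bp on the left and 2 bp on the right. The signal change was 0.37 by fold enrichment, 0.15 over the median of summits and -0.064 centred on all one-to-one pairs, the last chosen after seeing the data. The cause was not tested, beyond the smaller or larger sets these settings leave. No paired analysis was possible because the 3 libraries of a stage share 1 list, so no replicate could be left out either. The planned look at sequence and genes was not run.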

Other observations

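Members broad only at stage 10 were found near chromosome ends at a higher share than those broad at both stages. Within 5 Mb of the first base or of the last listed region of a chromosome were 24 of 123 of them (19.5%, 95% Wilson interval 13.5% to 27.4%), against 26 of 393 broad at both stages (6.62%, 4.55% to 9.52%), 35 of 332 broad only at stage 12 (10.5%, 7.68% to 14.3%, which overlaps the interval of the first group) and 11.7% of one-to-one pairs that are not members. This was seen after the values were known and was not tested.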
